A study of Mus musculus with 4 samples.

Results

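The MHC class II antigen presentation genes described here are Cd74, H2-Aa, H2-Ab1, H2-Eb1, H2-DMa, H2-DMb1, H2-DMb2 and Ciita. They were taken by name, 8 of the 25239 genes counted, and all 8 had enough reads to be among the 13963 genes tested. The livers came from C57BL/6 mice aged 6 to 8 weeks. The extract group received a Gynura segetum extract (30 g/kg per day, concentrated to 2 g/mL) into the stomach for 3 weeks, and the control group received saline. Gynura segetum is a plant rich in pyrrolizidine alkaloids, which injure the liver. Each group has 2 libraries, with 40013188 and 45754235 gene counts in the extract libraries and 49711750 and 32215268 in the control libraries. Nothing in the labels says that the libraries of a group are separate mice, so p-values measure only the spread between samples, possibly a technical one.

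Class II molecules present peptides from the endosomes to CD4 T cells. An alpha and a beta chain, such as H2-Aa with H2-Ab1, pair in the endoplasmic reticulum around the invariant chain Cd74, which blocks the groove and leads the complex to the endosome. There cathepsins cut the invariant chain down, and H2-DM (H2-DMa with H2-DMb1 or H2-DMb2) exchanges its remnant for a peptide. Ciita, the class II transactivator, is recruited to a shared promoter module of X and Y boxes by the RFX, CREB and NF-Y factors. Dendritic cells, B cells and macrophages are the main cells of the liver that carry class II, while sinusoidal endothelium carries less.

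The X and Y boxes can be read in the promoters. The module searched was AAC, then 2 or 3 bases, TGANG, then 10 to 25 bases and ATTGG, on both strands of promoter windows. The windows run from 250 bases before to 50 bases after a transcript start in RefSeq (GRCm38.p6, the assembly of mm10). AAC and TGANG lie in the X1 and X2 boxes, and ATTGG is the core of the Y box. Windows were found for 5 of the 8 genes (all but Cd74, H2-Ab1 and Ciita), and 4 of these hold the module, as does H2-Ob, the beta chain of the H2-DM inhibitor H2-O. They are shown in the direction of transcription, with the 3 searched parts in capitals, because they show what the promoters of these genes share.
H2-Aa: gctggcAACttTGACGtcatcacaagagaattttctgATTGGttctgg
H2-Eb1: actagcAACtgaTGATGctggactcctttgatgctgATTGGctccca
H2-DMb1: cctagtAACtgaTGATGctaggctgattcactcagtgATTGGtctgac
H2-DMb2: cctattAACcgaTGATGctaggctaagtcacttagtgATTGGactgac
H2-Ob: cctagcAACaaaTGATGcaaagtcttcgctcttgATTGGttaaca
These stretches lie at chr17:34287861-34287908 (minus strand), chr17:34305772-34305818, chr17:34153093-34153140, chr17:34145122-34145169 and chr17:34238814-34238858, the last 4 on the plus strand. ATTGG begins 48 bases before the transcript start of H2-Aa, 59 before that of H2-Eb1, 61 before that of H2-DMb1, 90 before that of H2-DMb2 and 57 before that of H2-Ob. The H2-DMb1 and H2-DMb2 stretches match at 42 of 48 bases. The module was found on either strand in 0.192% of the 32851 windows, while ATTGG alone was in 37.4%. Neither of the 2 windows of H2-DMa holds it, nor do those of H2-Oa and H2-Eb2. The windows of H2-DMa and H2-DMb2 lie wholly inside the gene spans given below, so the outermost starts of these genes were not searched. On the sense strand it occurred in 36 genes, of which 13 were tested and 0 passed edgeR's threshold. Over all genes tested, 3.63% were called lower and 4.91% higher, so 0 of 13 is near those shares. The 8 of these outside the class II genes had log2 fold changes of -0.39 to 0.31.

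All 8 genes were lower in both extract libraries than in either control library. Their fitted decreases ran from 2.38-fold for H2-DMb2 to 5.81-fold for H2-Ab1, with a median log2 fold change of -2.33, against -0.00 over all genes tested. Only H2-DMa passed the threshold (an adjusted p under 0.05 in edgeR's quasi-likelihood test, over all 13963 genes), where 3.63% of genes were called lower and 4.91% higher. At an unadjusted p under 0.05, edgeR counted 5 of the 8 as lower, against 11.2% of all genes. Groups that do not overlap with the extract below the control are common in these libraries, at 26.7% of the genes tested. The control libraries lay far apart, with class II levels 2.61 to 5.08 times higher in control replicate 1 than in control replicate 2.

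Cd74, the invariant chain (chromosome 18, positions 60803849 to 60812652, mm10), was the most abundant of the 8. It had 30.1 and 35.0 CPM (counts per gene, scaled to a common library size) in the extract libraries, against 262.8 and 74.0 CPM in the control libraries. The extract libraries lay close together and below both controls, and control replicate 1 stood far above the other 3. The log2 fold change was -2.37 (SE 0.69, edgeR adjusted p = 0.156).

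The 3 classical chains followed the same order of libraries. H2-Aa, the alpha chain of the I-A molecule (chromosome 17, 34282744 to 34287823), had 13.03 and 13.3 CPM in the extract libraries, against 112.4 and 24.8 CPM in the control libraries. H2-Ab1, its beta chain (34263227 to 34269418), had 12.2 and 11.7 CPM in the extract libraries, against 110.8 and 27.9 CPM in the control libraries. H2-Eb1, the beta chain of the I-E molecule (34305867 to 34316674), had 10.4 and 12.3 CPM in the extract libraries, against 104.3 and 22.6 CPM in the control libraries. For each of them the extract libraries were nearly level, and the lower control was 1.83 to 2.28 times the higher extract library. The log2 fold changes were -2.38 for H2-Aa (SE 0.84), -2.54 for H2-Ab1 (SE 0.76) and -2.49 for H2-Eb1 (SE 0.86). None of these 3 chains passed, with edgeR adjusted p-values of 0.225, 0.163 and 0.22 in that order. H2-Ea, the locus of the I-E alpha chain, had 0 counts in each of the 4 libraries, which allows at most 0.0625 to 0.101 CPM (3 counts, for counting error only). C57BL/6 mice are known to carry a deletion in the promoter of H2-Ea and to make no I-E molecule.

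**Figure D1:**
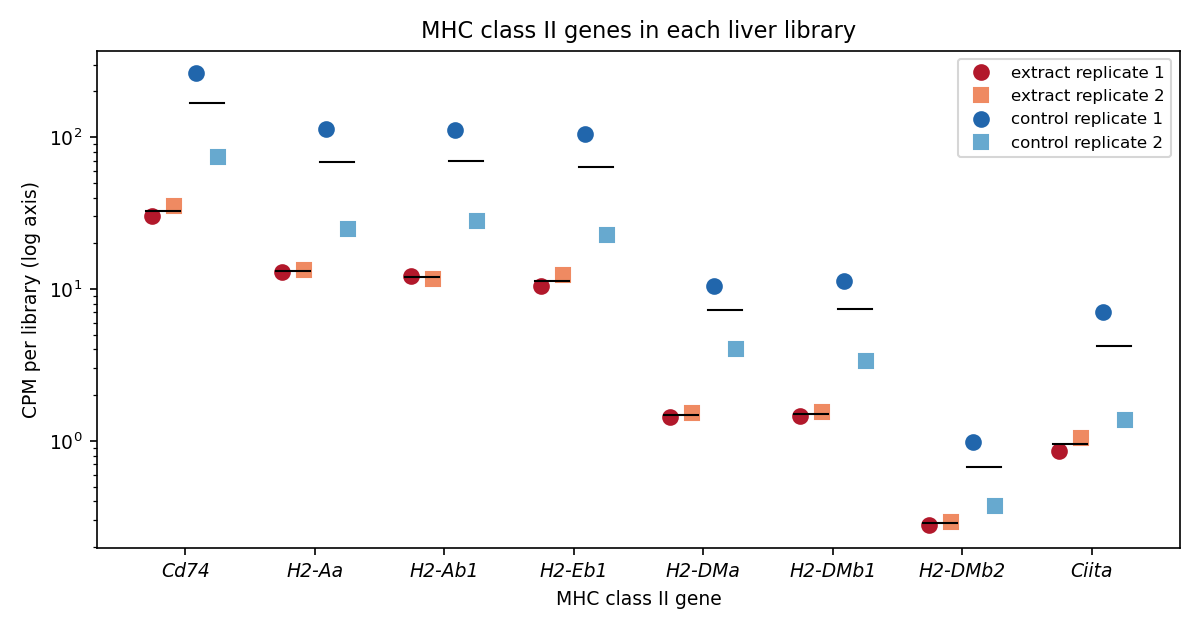
CPM (log axis) of the 8 class II genes in each liver library, with extract libraries in red and control libraries in blue and a black line at each group's mean (n = 2 libraries). Both extract libraries lie below both controls for every gene, and control replicate 1 lies 2.61 to 5.08 times above control replicate 2.

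The chains of H2-DM, the peptide exchange factor, had far fewer counts than the classical chains in every library. H2-DMa (chromosome 17, 34119693 to 34139101) had 1.44 and 1.53 CPM in the extract libraries, against 10.4 and 4.01 CPM in the control libraries. It fell by 2.29 on the log2 scale (SE 0.49, edgeR adjusted p = 0.0379), and its control libraries were 2.61-fold apart, the smallest gap of the 8. Of its annotated exon bases, 10.4% overlap those of Brd2 on the opposite strand, a gene with 101.9 and 101.1 CPM in the extract libraries and 120.1 and 99.0 CPM in the control libraries. The strand setting of the counting is not given in the sources used here, so reads of this overlap cannot be assigned. H2-DMb1 (34153191 to 34160229) had 1.46 and 1.55 CPM in the extract libraries, against 11.3 and 3.33 CPM in the control libraries. Its log2 fold change of -2.29 (SE 0.59, edgeR adjusted p = 0.0722) was as large as that of H2-DMa, with a wider error. H2-DMb2 (34143229 to 34151553) had only 12 and 14 counts in the extract libraries, against 47 and 11 in the control libraries. That is 0.278 and 0.294 CPM in the extract libraries, against 0.98 and 0.37 CPM in the control libraries. The lower control was 1.26 times the higher extract library, and the log2 fold change was -1.25 (SE 0.74, edgeR adjusted p = 0.376).

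H2-DMb1 and H2-DMb2 are close copies, so their counts are uncertain. Of the distinct 75-base stretches of their GENCODE vM21 transcripts, 15.8% of those of H2-DMb1 and 16.2% of those of H2-DMb2 also occur in another gene. H2-DMb2 took 16.0% (95% exact interval 8.55 to 26.3) and 15.9% (8.98 to 25.2) of the joint H2-DMb counts in the extract libraries. In the control libraries it took 7.97% (5.91 to 10.5) and 10% (5.10 to 17.2). The share was higher in both extract libraries than in both controls, with overlapping intervals that cover counting error only.

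Ciita (chromosome 16, 10480014 to 10531064) had 0.858 and 1.05 CPM in the extract libraries, against 7.004 and 1.38 CPM in the control libraries. Its control libraries differed most among the 8, by 5.08-fold, and control replicate 2 was only 1.32 times the higher extract library. The log2 fold change was -2.15 (SE 0.76, edgeR adjusted p = 0.159). Of its annotated exon bases, 3.45% overlap those of Dexi on the opposite strand.

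Per kilobase of annotated exon, the genes kept nearly the same order in every library. In CPM per kilobase, Cd74 averaged 19.4 ± 2.07 in the extract libraries and 100.3 ± 79.5 in the control libraries (SD, n = 2 each). H2-Eb1 averaged 5.84 ± 0.70 in the extract libraries and 32.6 ± 29.7 in the control libraries, on the same scale. H2-Ab1 came next, with 4.65 ± 0.15 in the extract libraries and 27.0 ± 22.8 in the control libraries. H2-Aa, H2-DMb1 and H2-DMa followed in that order in each of the 4 libraries. H2-DMb2 lay above Ciita except in control replicate 1, where Ciita had 0.735 and H2-DMb2 0.561 CPM per kilobase. Between neighbours in this order the ranges of the control libraries overlapped, except between H2-DMa and the lower pair of H2-DMb2 and Ciita.

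The proportions between the genes differed less than their levels. Counts of H2-Aa per count of H2-Ab1 were 1.07 and 1.14 in the extract libraries and 1.02 and 0.89 in the control libraries. Counts of Cd74 per count of the 3 chains together were 0.844 and 0.937 in the extract libraries and 0.802 and 0.982 in the control libraries. The H2-DMa and H2-DMb1 counts per 100 chain counts were 8.13 and 8.26 in the extract libraries and 6.65 and 9.74 in the control libraries. For Cd74 per chain and for H2-DM per chain, the extract libraries lay between the controls. Ciita counts per 100 Cd74 counts were 2.85 and 3.00 in the extract libraries and 2.67 and 1.87 in the control libraries. With 2 libraries a group, an exact permutation test of such a ratio cannot give a two-sided p below 0.333, so no ratio was tested.

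The size of the decrease depended on which control library was used, and its direction did not. Without control replicate 1 the log2 fold changes of the 8 genes ran from -1.43 to -0.37 with a median of -1.07. Without control replicate 2 they ran from -3.21 to -1.76 with a median of -2.96. In the first case 6 of the 8 were called lower (all but H2-DMb2 and Ciita), where 9.96% of all genes were, and in the second 7 of 8 (all but H2-DMb2), where 12.2% of all genes were. In these fits the lone control is assumed to vary like the extract pair, which was the tighter one. Without extract replicate 1 or 2, 0 of 8 were called with edgeR (2 at an unadjusted p under 0.05 in each), where 0.929% and 1.17% of all genes were called lower. DESeq2's Wald test, on all 4 libraries, called Cd74, H2-Ab1, H2-DMa, H2-DMb1 and Ciita lower, 5 of 8, where it called 6.25% of all genes lower. Scaling by total counts called 0 of 8, where 2.42% of all genes were lower, and a replicate block called 1, where 4.88% were.

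**Figure D2:**
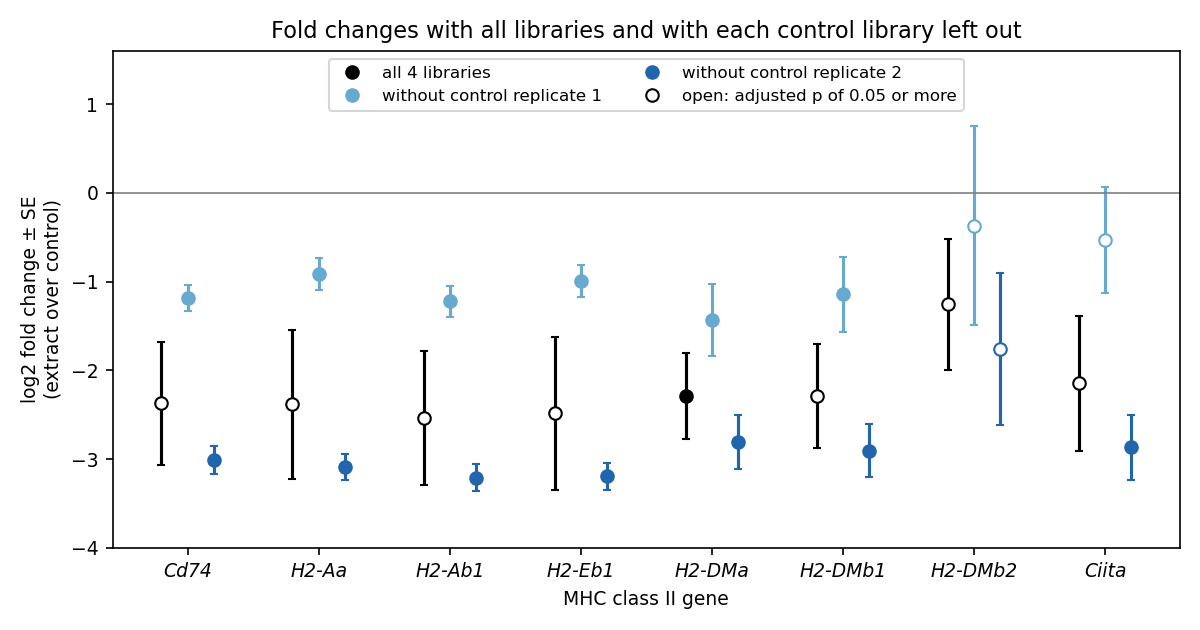
Log2 fold change of extract over control (vertical axis, ± SE) for the 8 class II genes, with all 4 libraries (black), without control replicate 1 (light blue) and without control replicate 2 (dark blue). Filled points have an edgeR adjusted p under 0.05, and every value is below 0, with medians of -2.33, -1.07 and -2.96 in that order.

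The gap between the controls can be set against all genes. Control replicate 1 was at least 2-fold above control replicate 2 for 9.75% of the genes tested and for 8 of 8 class II genes. The median log2 ratio of (CPM + 1) between control replicates 1 and 2 was 1.78 for the 8 genes and 0.03 for all genes tested. Between the extract libraries none of the 8 differed 2-fold, as against 5.99% of all genes, and their ratios of replicate 1 to replicate 2 ran from 0.817 to 1.05.

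**Figure D3:**
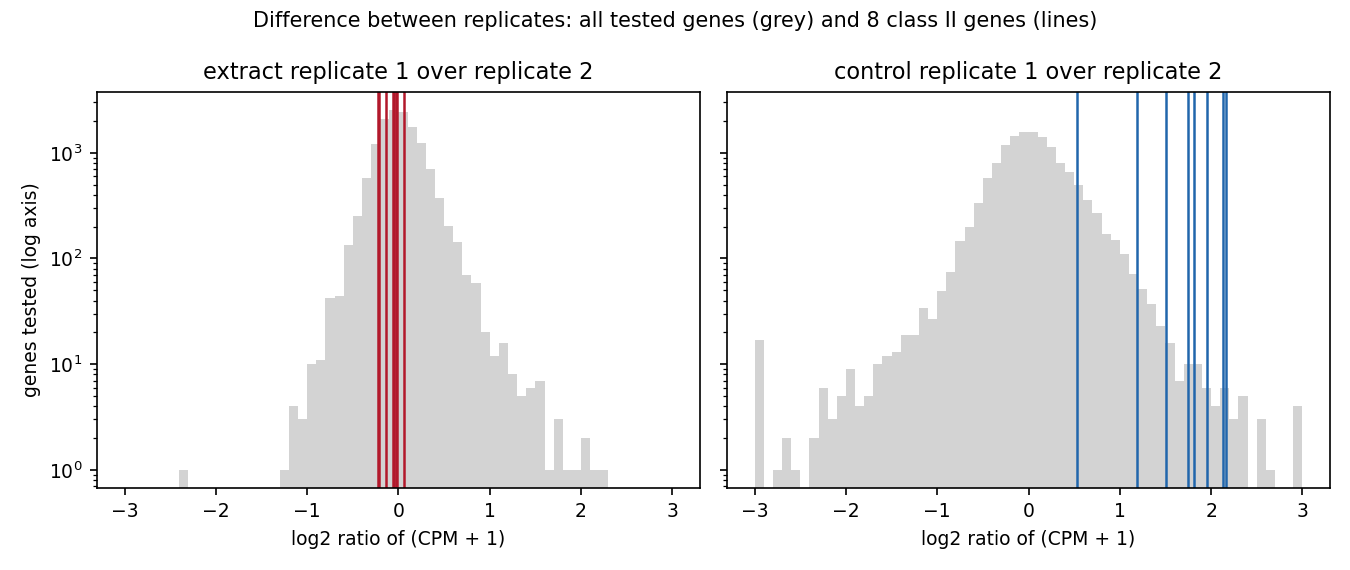
Number of tested genes (log axis) by the log2 ratio of (CPM + 1) between replicates 1 and 2 of the extract group (left) and of the control group (right), with values beyond 3 drawn at the edge. Coloured lines mark the 8 class II genes, which lie near 0 for the extract pair and right of 0 for the control pair, at 0.53 for H2-DMb2 and with a median of 1.78.

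Markers of cell types that carry class II also differed between the same libraries. In whole liver, fewer cells of a type and less RNA per cell cannot be told apart. The liver label matched its markers, with albumin at 69267 and 74606 CPM in the extract libraries and 105691 and 109141 CPM in the control libraries. The summed level of the 8 class II genes was 69.7 and 76.8 CPM in the extract libraries, against 620.0 and 158.4 CPM in the control libraries. The sum of 12 Kupffer cell markers, which mark the resident liver macrophages, was 84.7 and 86.2 CPM in the extract libraries, against 843.9 and 661.4 CPM in the control libraries. The Kupffer sums of the controls were 1.28-fold apart, while the class II sums were 3.91-fold apart. Single Kupffer markers could differ more, with Marco and Adgre1 2.21 and 2.20 times higher in control replicate 1 than in control replicate 2. Of the 12, 11 were called lower with edgeR and 0 higher, where 3.63% of all genes were called lower and 4.91% higher. The median log2 fold change of the 12 was -3.25, and -3.51 to -2.95 with any 1 library left out. Cd74 counts per count of Clec4f, a lectin restricted to Kupffer cells, were 6.36 and 5.38 in the extract libraries, against 1.58 and 0.462 in the control libraries. Clec4f fell more steeply than most of the 12, with a log2 fold change of -4.86 against their median of -3.25. Marco and C1qc, at -2.34, lay near Cd74 (-2.37), so such a ratio depends on the marker chosen.

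Markers of dendritic cells and B cells were scarce, and their sums in control replicate 2 were below those of the extract libraries. The sum of 16 dendritic cell markers was 26.9 and 25.7 CPM in the extract libraries, against 49.4 and 24.4 CPM in the control libraries, with Ccl22 at 0 in control replicate 2. Fscn1, an abundant marker of this list, had 9.71 and 8.65 CPM in the extract libraries and 8.67 and 4.95 CPM in the control libraries. The sum of 13 B cell markers was 5.22 and 6.46 CPM in the extract libraries, against 11.0 and 5.15 CPM in the control libraries, with Pou2af1 at 0 in control replicate 2. For both lists, control replicate 1 was the highest library, at 2.02 and 2.15 times control replicate 2. Gene by gene, 9 of 13 tested dendritic cell markers were lower in both extract libraries than in both controls, where 26.7% of all genes were. Clec9a, a receptor of conventional dendritic cells that take up dead cells, had 1.25 and 1.196 CPM in the extract libraries, against 4.27 and 2.93 CPM in the control libraries. Flt3, the cytokine receptor that dendritic cells depend on, had 2 and 5 counts in the extract libraries, against 50 and 11 in the control libraries. The other 4 of the 13 overlapped between the groups. Their log2 fold changes were above 0, at 0.71 for Cd209a, 0.42 for Fscn1, 0.17 for Zbtb46 and 0.04 for Itgax. The median log2 fold change of the 13 was -1.56, and 5 were lower at an unadjusted p under 0.05 with edgeR, against 11.2% of all genes. Of these 13 markers 1 passed the threshold, Cd7 (edgeR log2 fold change -2.98 with an SE of 0.69, adjusted p = 0.0474). Cd7 is expressed by plasmacytoid dendritic cells and also by T and NK cells, and its call was lost when either extract library or control replicate 1 was left out, with total-count scaling and without the robust step. Irf8, a transcription factor that dendritic cells need, had the highest mean CPM of that list, with 7.09 and 7.22 CPM in the extract libraries and 15.8 and 8.28 CPM in the control libraries. Without control replicate 2 the median log2 fold change of the dendritic cell markers was -1.98 (16 tested), and without control replicate 1 it was -0.65 (13 tested). Without extract replicate 1 it was -1.52 (16 tested), and without extract replicate 2 it was -1.53 (15 tested). Of 13 B cell markers, 0 passed with edgeR, 0 had an unadjusted p under 0.05, and 0 passed with DESeq2. Their median log2 fold change was -0.32, against 0.39 without control replicate 1 and -0.77 without control replicate 2. The sum of 10 sinusoidal endothelial markers was 248.7 and 244.2 CPM in the extract libraries, against 433.1 and 402.4 CPM in the control libraries. Of the 10, 7 were called lower with edgeR, where 3.63% of all genes were. The median log2 fold change of the 10 was -1.48, and -1.61 to -1.27 with any 1 library left out. The sum of 12 monocyte and macrophage markers was 119.6 and 102.0 CPM in the extract libraries, against 182.7 and 157.3 CPM in the control libraries. Of these 12, 1 was called higher and 3 lower with edgeR, where 4.91% and 3.63% of all genes were. The median log2 fold change of these 12 was -0.12 with all 4 libraries, 0.94 without control replicate 1 and -0.12 without control replicate 2. Without extract replicate 1 it was -0.35, and without extract replicate 2 it was -0.11. The part of any of these cell types in the class II decrease was not tested.

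**Figure D4:**
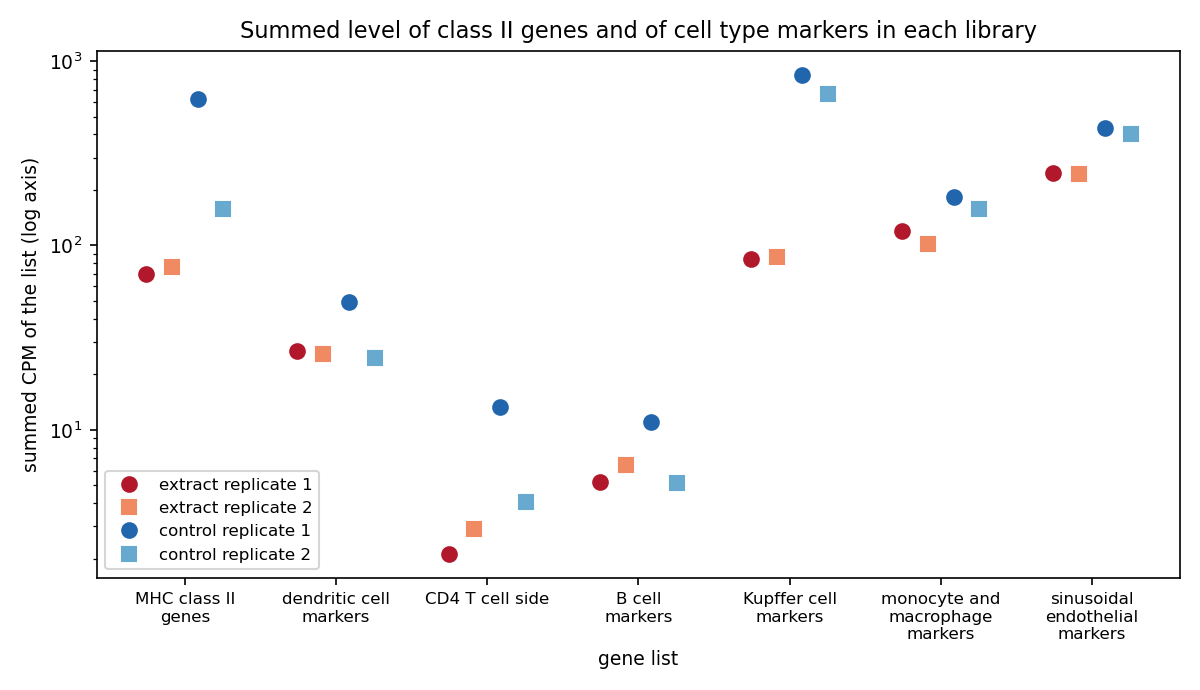
Summed CPM (log axis) of the 8 class II genes, of the T cell genes and of 5 cell type marker lists in each library, with extract libraries in red and control libraries in blue. Every sum is highest in control replicate 1. The class II sums of the controls are 3.91-fold apart and the Kupffer sums 1.28-fold apart, at 843.9 and 661.4 CPM.

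Of 40 tested genes on 7 lists of the wider class II pathway, 5 fell, 1 rose and 34 did not pass edgeR's threshold. Over all genes tested, 3.63% were called lower and 4.91% higher. The median log2 fold change of the 40 was -0.29. Without control replicate 2, edgeR called 18 of 43 lower and 1 higher, where 12.2% of all genes were lower and 12.4% higher. Without control replicate 1 it called 5 of 40 lower and 5 higher, near the shares of all genes in that fit, 9.96% lower and 12.8% higher. Without extract replicate 1 or 2 it called 2 and 3 in all. The 5 that fell with all 4 libraries were Rfxank, Ctss, Lgmn, Cd86 and Icos, and Ctsd rose.

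Among the factors that bind the promoter module, 1 of 8 fell, where 3.63% of all genes were called lower. Rfxank, the ankyrin repeat subunit of the RFX complex, had 10.3 and 10.9 CPM in the extract libraries, against 23.7 and 29.8 CPM in the control libraries. It was higher in control replicate 2 than in control replicate 1, unlike the class II genes, and fell by 1.34 on the log2 scale (SE 0.18, edgeR adjusted p = 0.00741). It was past the threshold in each of the 12 alternative analyses. Rfx5, the DNA-binding subunit, had a log2 fold change of 0.47 and Rfxap, the associated protein, of -0.08, with edgeR adjusted p-values of 0.16 and 0.828. Nfyb (0.07), a subunit of NF-Y, and Atf1 (-0.27) and Creb1 (-0.16), of the CREB family, did not pass either on the log2 scale.

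Enzymes that process antigen and the invariant chain went in both directions, with 2 of 9 lower, 1 higher and 6 not past the threshold. The shares of all genes were 3.63% lower and 4.91% higher. Cathepsin S (Ctss), which trims the invariant chain in dendritic cells and B cells, had 14.9 and 14.1 CPM in the extract libraries, against 69.6 and 41.8 CPM in the control libraries. It fell by 1.94 on the log2 scale (SE 0.25, edgeR adjusted p = 0.00874) and was past the threshold in all 12 alternatives. Legumain (Lgmn), an asparaginyl endopeptidase of the endosome, had 41.1 and 39.9 CPM in the extract libraries, against 78.8 and 62.5 CPM in the control libraries (edgeR log2 fold change -0.80 with an SE of 0.16, adjusted p = 0.0275). Cathepsin D (Ctsd), an aspartic protease of most cells, had 703.7 and 676.8 CPM in the extract libraries, against 417.6 and 357.2 CPM in the control libraries (edgeR log2 fold change 0.83 with an SE of 0.15, adjusted p = 0.0209). Both calls were lost when either extract library was left out, and that of Lgmn also with total-count scaling. Ctsl, the cathepsin that trims the invariant chain in the thymic epithelium, had a log2 fold change of -0.59, Ctsb of -0.12 and the intramembrane protease Sppl2a of 0.22.

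The ligase Marchf1, which ubiquitinates class II chains and lowers them at the cell surface, followed the class II genes in the order of the groups. It had 0.997 and 0.483 CPM in the extract libraries, against 5.67 and 1.89 CPM in the control libraries (edgeR log2 fold change -2.36 with an SE of 0.65, adjusted p = 0.083). The related Marchf8 lay at 115.8 and 117.3 CPM in the extract libraries and 113.6 and 110.4 CPM in the control libraries. H2-Ob had 10 and 28 counts in the extract libraries, against 56 and 15 in the control libraries, and the groups overlapped. H2-Oa, the alpha chain of H2-O, had 0 and 10 counts in the extract libraries, against 11 and 1 in the control libraries, too few to be tested.

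Interferon gamma is the main inducer of Ciita outside dendritic cells and B cells. Ifng itself had 0 and 1 counts in the extract libraries, against 15 and 0 in the control libraries. All but 1 of the 16 counts were thus in control replicate 1, and the gene was not tested. Irf1, a transcription factor that interferon gamma induces, had 41.4 and 47.1 CPM in the extract libraries and 55.1 and 33.3 CPM in the control libraries. Of 8 tested genes of this axis 0 passed with edgeR, 0 had an unadjusted p under 0.05, and 0 passed with DESeq2. The median log2 fold change of the axis was -0.20 with all 4 libraries. It was -0.33 without control replicate 2 (over 9 tested genes) and 0.06 without control replicate 1.

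Of the costimulatory genes and those of T cells, Cd86 and Icos fell. Cd86, a ligand of Cd28 (the costimulatory receptor of T cells), had 0.394 and 0.819 CPM in the extract libraries, against 5.67 and 3.97 CPM in the control libraries (edgeR log2 fold change -2.98 with an SE of 0.47, adjusted p = 0.0138). Its edgeR adjusted p ran up to 0.0667 over the alternatives, reached without extract replicate 1. Cd80, the other ligand of Cd28, had 2.53 and 1.72 CPM in the extract libraries, against 0.938 and 0.673 CPM in the control libraries, in the opposite direction to Cd86 (edgeR log2 fold change 1.38 with an SE of 0.47, adjusted p = 0.138). Icos, a costimulatory receptor of activated T cells, had 1 and 2 counts in the extract libraries, against 115 and 29 in the control libraries. The pooled ratio of extract to control was 0.0178 (95% counting interval 0.00363 to 0.0531), with an edgeR adjusted p of 0.0137, and the call was lost when either extract library was left out. The sum of 8 T cell genes was 2.13 and 2.90 CPM in the extract libraries, against 13.4 and 4.07 CPM in the control libraries. Among them Cd4, the class II coreceptor, had 5 and 24 counts in the extract libraries, against 92 and 21 in the control libraries, where the order of the groups holds only in CPM. Icos was the 1 of 7 tested that passed, where 3.63% of all genes were called lower. At an unadjusted p under 0.05 with edgeR, 4 of the 7 were lower, against 11.2% of all genes. The median log2 fold change of the 7 was -2.08. It was -0.77 without control replicate 1, and over 8 tested genes -2.74 without control replicate 2. Without extract replicate 1 or 2 it was -1.80 and -2.40, again over 8 genes.

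**Figure D5:**
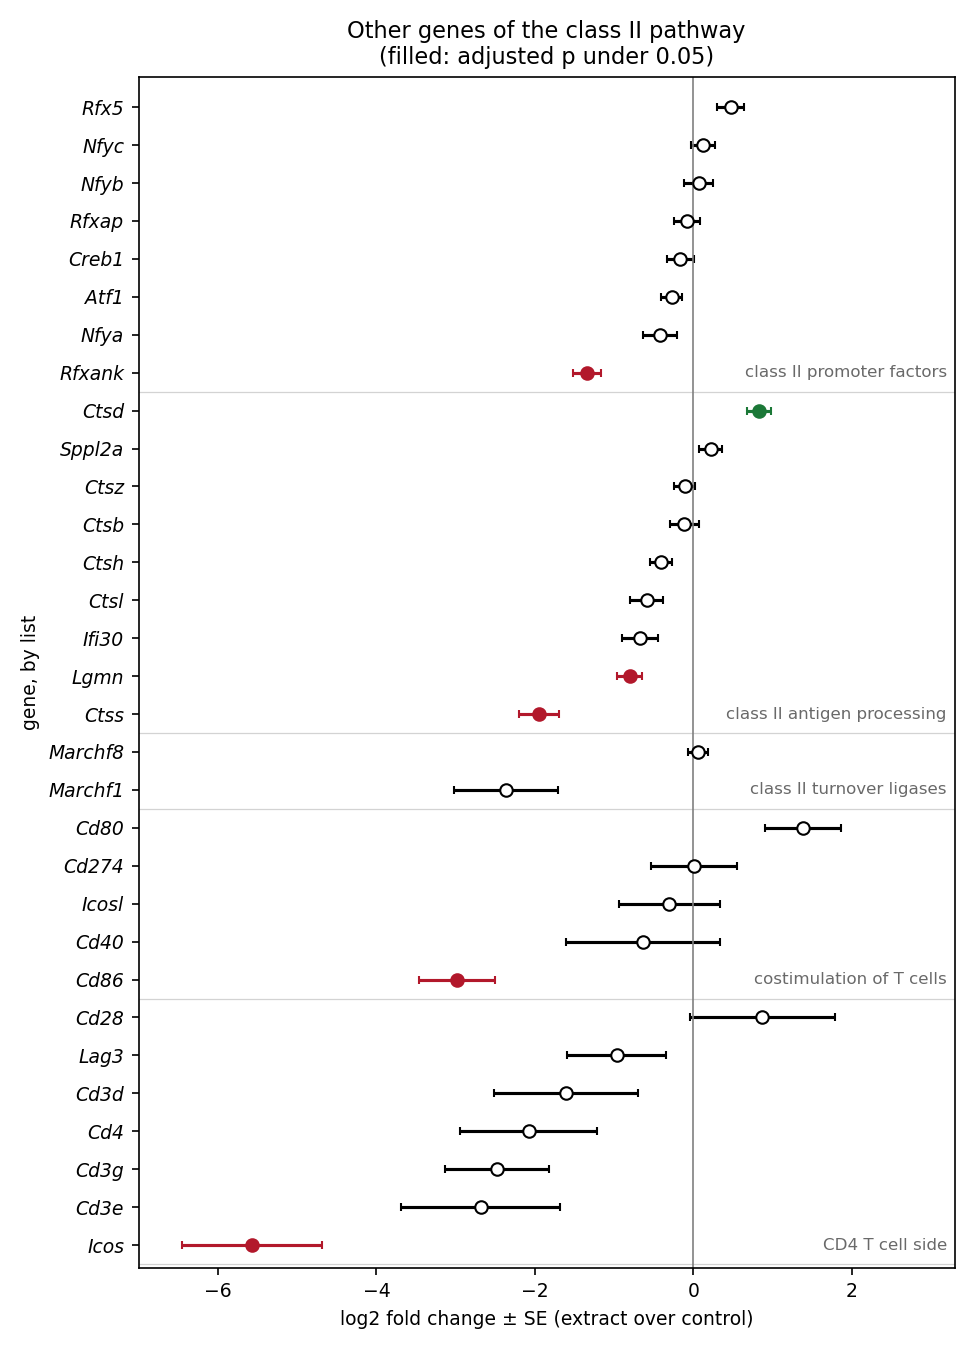
Log2 fold change of extract over control (horizontal axis, ± SE) of the other tested genes of the class II pathway, grouped by list, without H2-Ob and the interferon gamma list. Filled points passed edgeR's threshold, and the 5 that fell and the 1 that rose (Ctsd, at 0.83) belong to 4 lists.

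The genes whose levels ran most like those of Cd74, H2-Aa, H2-Ab1 and H2-Eb1 over the 4 libraries were sought among 9480 tested genes with a mean of at least 5 CPM. The measure was the root mean square difference between profiles of log2(CPM + 1), each less its own mean. The 6 nearest were Gbp10, a guanylate-binding protein (0.254), Tcf24, a helix-loop-helix factor (0.286), the chemokine Cxcl9 (0.317), the GTPase Tgtp1 (0.346), the peroxisomal transporter Abcd2 (0.374) and Marco, a scavenger receptor of macrophages (0.377). The chains and Cd74 themselves lay at 0.068 to 0.0823 from their mean profile, and H2-DMb1 and H2-DMa at 0.306 and 0.362. Ciita at 0.449 and H2-DMb2 at 0.992 were farther from it than the 6 genes. Cxcl9 had 3.92 and 8.56 CPM in the extract libraries, against 65.1 and 14.3 CPM in the control libraries. Tcf24, Abcd2 and Marco were past edgeR's threshold, with log2 fold changes of -2.42, -2.18 and -2.34, and Gbp10, Cxcl9 and Tgtp1 were not. These 3 calls were lost with the replicate block, without the low-count filter and when either extract library was left out. The 6 genes were picked for this profile, so their values describe these 4 libraries only.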

How the data were processed

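Liver RNA was extracted with Trizol and sequenced on Illumina libraries, per the labels' protocols. CASAVA 1.8, HISAT2 2.1.0, HTSeq and the mm10 build are named per the submitters' processing notes, without roles. The labels leave out the HTSeq version, the annotation, the strand setting and the read length. The deposited values are raw counts per gene symbol. The 5 rows that name no gene were left out, and alignments to several places took 5.18% and 5.33% of records in the extract libraries and 6.70% and 9.03% in the control libraries.

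Counts were tested with edgeR 4.0.16 (R 4.3.3) with filterByExpr, TMM scaling, robust dispersion and quasi-likelihood F tests, two-sided, adjusted after Benjamini and Hochberg over 13963 genes. CPM uses the TMM-scaled library sizes, so 1 read is worth 0.0208 to 0.0337 CPM. The edgeR step was tested on simulated data. Alternatives were other scalings, DESeq2 1.42.0, no low-count filter, no robust step, leaving out the 20 most abundant genes or each library, and a replicate block. Lengths and overlaps come from GENCODE vM21, promoters and positions from RefSeq (GRCm38.p6).

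The members and lists were chosen with earlier results of these data known. From each of the other lists, called genes (up to 6 by p) and up to 3 further abundant ones could be named. Genes outside this rule, such as Ifng, H2-Ea, Rfx5, Cd4, Clec9a and Flt3, were named for their role. A result for 1 listed gene is not reported here.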

Additional observations from a re-analysis of the deposited data

How the results depend on the processing

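The log2 fold changes of the 8 class II genes were below 0 in the fit to all libraries and in each of the 12 alternatives. The number called varied. In place of the 1 called class II gene there were 0 with total-count scaling (7 at an unadjusted p under 0.05) and 5 with DESeq2, and 0 to 7 with 1 library left out. H2-DMa had an edgeR adjusted p of 0.0555 with total-count scaling, which moved the median log2 fold change of all genes to 0.16. With that scaling 940 genes were higher and 338 lower, against 686 and 507 in the main analysis. Genes called in all came to 1193, to 1936 with DESeq2, and to 367 to 3591 with 1 library left out. On the 7 lists of the wider pathway 6 genes were called, and 2 to 19 with 1 library left out. The cause of these differences was not tested, but fits without an extract library take their spread from the control pair, whose libraries differed more (chi-square over degrees of freedom 118.1, against 29.1 for the extract pair).

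The labels do not say that equal replicate numbers mark a shared litter, batch or day. The deviations of same-numbered libraries correlated at r = 0.22 over genes. With the replicate block, 1584 genes were called, 1 of the 8 class II genes (H2-DMa) and 7 genes of the wider pathway. Depth limits the values of H2-DMb2, H2-Oa, H2-Eb2, Ifng and many dendritic, T and B cell markers, with fewer than 20 counts in at least 1 library.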
